A study of Mus musculus with 2 samples.

Results

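Non-collagen glycoproteins and proteoglycans of the extracellular matrix were compared between anterior and posterior tissue of the early mouse limb bud. The group was a named list of 55 genes, and a gene was measured where a probe set carried its symbol and no other; 51 genes met this among 14860 measured genes, each with 1 probe set. Fbn1, Efemp2, Fmod and Lox had no such probe set and were not analysed here. Limb buds came from wild-type CD1 embryos at embryonic day 10.5, and the labels name 8 litters. The buds were cut along the midline, and the anterior and the posterior sides were each pooled and hybridised to 1 array. No group carried a mutation, transgene or treatment, and the limb type, fore or hind, is not stated. With 1 array per tissue no gene could be tested, and no value below has a replicate error.

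These proteins fill the space between cells. Fibronectin and tenascins guide adhesion and migration, fibrillins and their partners form microfibrils that hold growth factors such as TGF-beta and BMPs in latent form, lecticans bind hyaluronan into hydrated gels, and nidogens, perlecan and agrin belong to basement membranes. In the early limb bud the mesenchyme lies in a loose matrix rich in hyaluronan, versican and fibronectin under an ectodermal basement membrane, and the cartilage proteins of the list, such as aggrecan and the matrilins, are known from later, differentiating skeletal tissue.

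The share of matrix genes that differed between the sides of the limb bud by the threshold used here was near that of all genes. Among 51 measured genes 25 had their higher value in posterior tissue and 25 in anterior tissue, and Acan had the same value in both, whereas 5890 of all genes had their higher value in posterior and 8477 in anterior tissue. Past 1.3-fold, the threshold that the submitters state (0.38 on the log2 scale), 1 gene was higher in posterior tissue, Ltbp1, against 3.77% of all genes, and 4 were higher in anterior tissue, Matn3, Emilin2, Bgn and Dcn, against 4.80% of all genes. Together these are 9.80% of the measured matrix genes, beside 8.57% of all genes, a share near the background. On the log2 scale the matrix genes had a median difference of 0.00 and all genes one of -0.04 (posterior minus anterior throughout), and the median size of a difference was 0.117 and 0.12. In pooled tissue, fewer cells of a type and less RNA per cell cannot be told apart.

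Many of the listed genes lay near background. A gene counted as detected if at least 1 array read above 5.06 on the log2 scale, the 95th percentile of 852 genes of olfactory, vomeronasal and taste receptors and beta-defensins, which are not known from limb buds. Of the 51 matrix genes 28 were detected (54.9%, beside 60.7% of all genes), and 24 of them lay above the floor on both arrays. Among these 28, Ltbp1 was the 1 gene past 1.3-fold toward posterior tissue, where 1.85% of all detected genes were, and Emilin2 and Bgn were the 2 toward anterior tissue, where 4.68% were. Together these are 10.7% of the detected matrix genes, beside 6.53% of all detected genes. Whether these shares differ was not tested. Matn3 and Dcn were not detected, so their differences lie at or below background signal. The local spread, used below in place of an error, is the robust standard deviation of the differences of the 500 genes nearest in level. True differences of those genes enter it together with noise, so it is no replicate error. It is taken around the median difference of those genes, which lay below 0 for most detected matrix genes. There a difference toward anterior tissue, set beside its local spread, looks larger than its distance from that median. The local spread ran from 0.08 to 0.20 over the detected matrix genes and from 0.17 to 0.23 over the others.

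**Figure D1:**
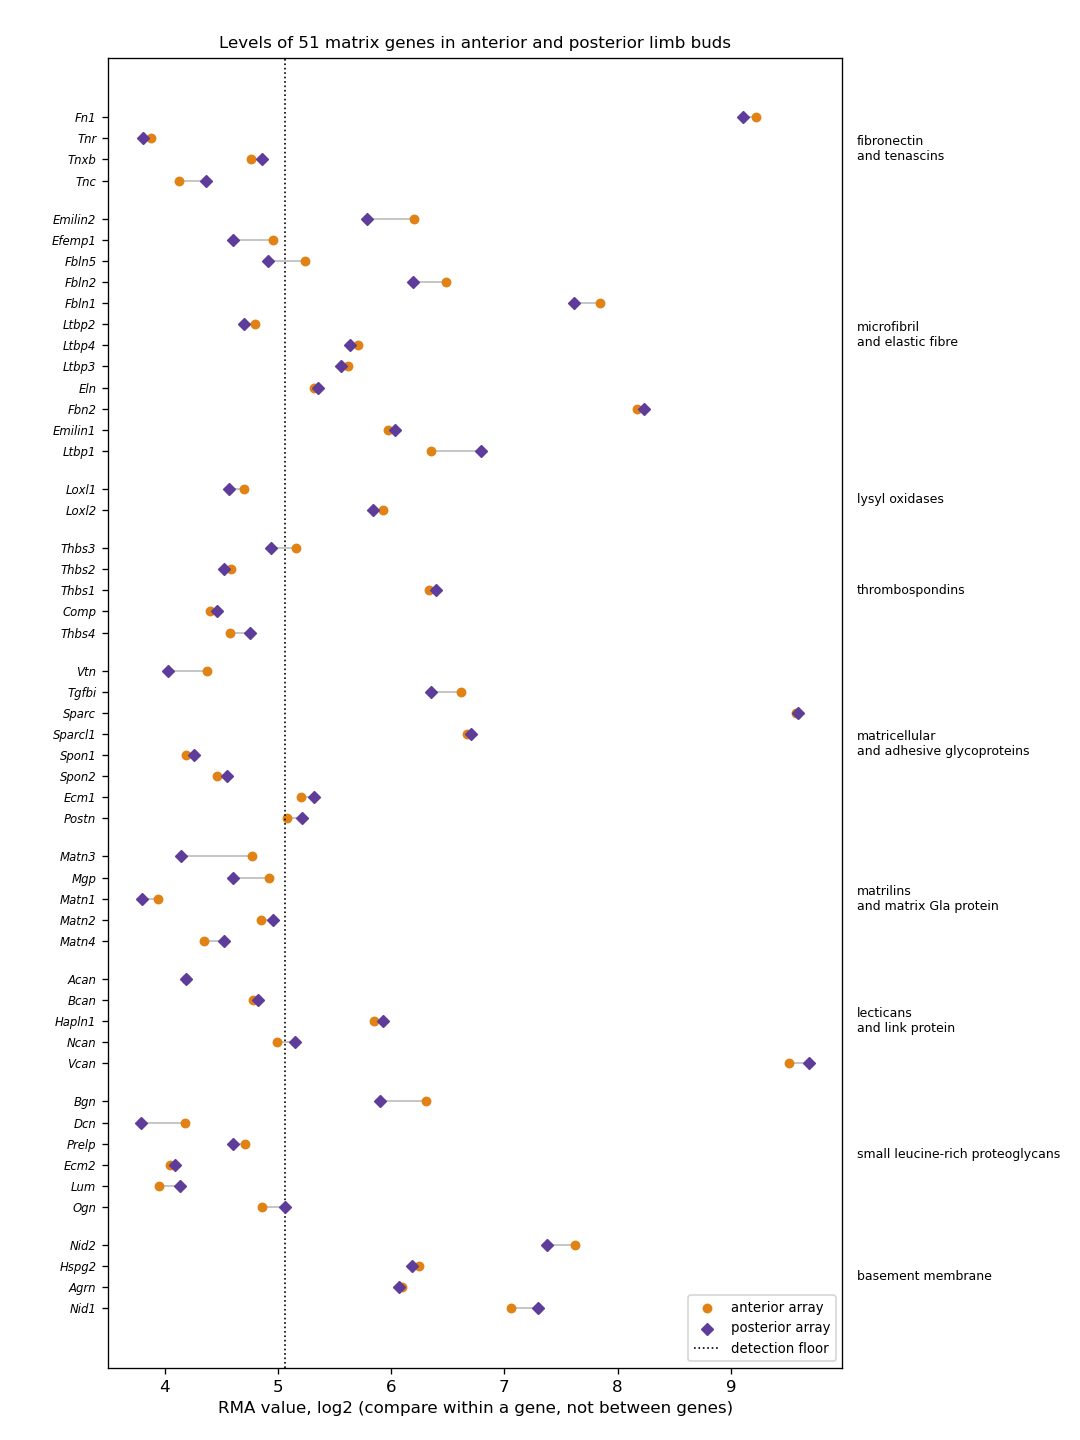
RMA values on the log2 scale (x axis) of the 51 measured matrix genes (rows, grouped by role) on the anterior (circles) and posterior (diamonds) array, with the detection floor at 5.06 as a dotted line. Most pairs of points nearly coincide, Ltbp1 is displaced to the right in posterior tissue, and all 5 genes of the matrilin group lie left of the floor.

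The differences also followed the level of a gene. Detected genes were in the median 0.07 lower in posterior tissue on the log2 scale, and after this trend with level was removed 1 of the 28 detected matrix genes remained past 1.3-fold toward posterior tissue, against 2.48% of detected genes, and 0 toward anterior tissue, against 3.12%. The 1 gene was Ltbp1. Emilin2 and Bgn then lay at -0.35 and -0.34, under the threshold. As deposited, 14 of the 28 detected matrix genes had their higher value in posterior and 14 in anterior tissue, beside 2815 and 6023 of all detected genes. With the trend removed these were 16 and 12, since Hspg2 and Agrn crossed 0, beside 4501 and 4516.

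**Figure D2:**
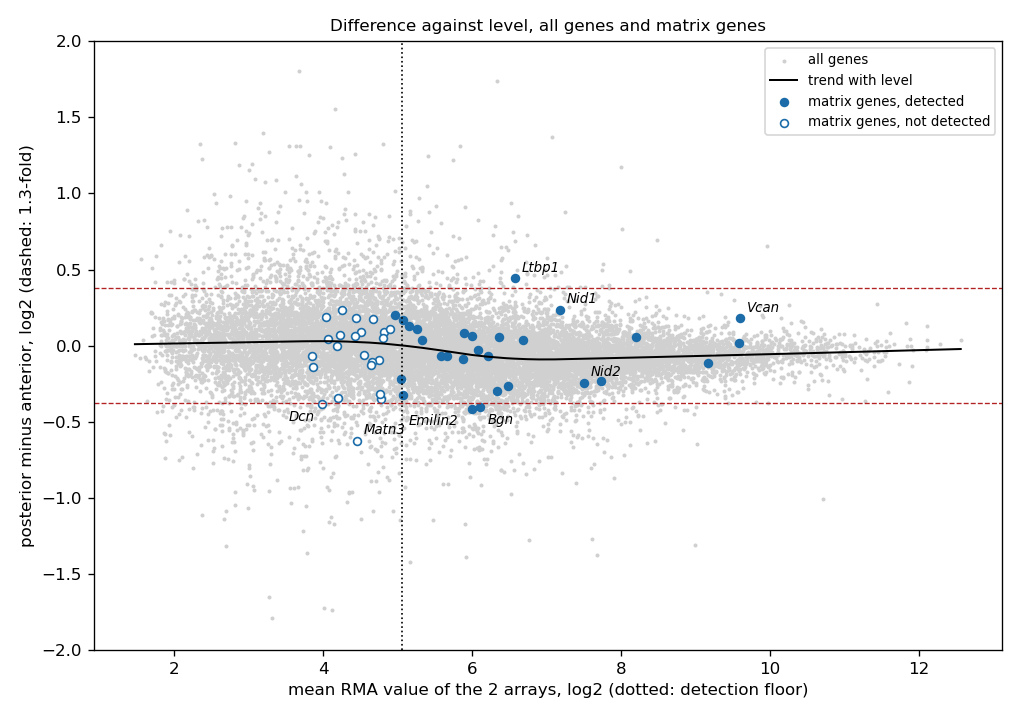
Difference between posterior and anterior tissue on the log2 scale (y axis) against the mean level (x axis) for 14860 genes in grey and the 51 matrix genes in blue, filled where detected. The black line is the trend with level, the dashed lines mark 1.3-fold and the dotted line the detection floor. The matrix genes lie within the cloud of all genes, and Ltbp1 is the one above the upper dashed line.

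Ltbp1, the latent TGF-beta binding protein that tethers the latent growth factor to microfibrils, was the matrix gene furthest toward posterior tissue. Its level was 6.35 in anterior and 6.79 in posterior tissue on the log2 scale, both above the floor. This made it 1.36-fold higher on the posterior side, a log2 difference of 0.44 beside a local spread of 0.17, and the difference was 0.53 after the trend correction. In the same family, Ltbp3 and Ltbp4 differed by -0.07 each and the undetected Ltbp2 by -0.09.

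Emilin2, a glycoprotein related to those that sit between elastin and microfibrils, was the detected matrix gene furthest toward anterior tissue. Its level was 6.21 in anterior and 5.79 in posterior tissue, which is 1.33-fold higher on the anterior side, a log2 difference of -0.42 beside a local spread of 0.18. Its paralogue Emilin1, known as an inhibitor of TGF-beta precursor processing, differed by 0.07 toward posterior tissue, within its local spread of 0.17.

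Bgn encodes biglycan, a small leucine-rich proteoglycan that binds collagen and TGF-beta. Its level was 6.30 in anterior and 5.90 in posterior tissue, which is 1.32-fold higher on the anterior side, a log2 difference of -0.40 beside a local spread of 0.17. Bgn and Emilin2 passed 1.3-fold by a small margin, the nearest matrix gene under the threshold being the undetected Efemp1 at 1.28-fold.

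The promoters of these 3 genes are shown because they are the detected matrix genes past 1.3-fold. Each window is taken from RefSeq on GRCm38.p6, another build than the mm9 named for the arrays, and runs from 250 bases before to 50 bases after an annotated start, 5′ to 3′ on the gene's strand. Capitals mark matches on either strand to GGGCGG (the GC box), CATCTG (an E-box form), TATAAA (the TATA box) or GACCACCCA (the GLI site). Ltbp1 has an upstream and a downstream start in the table, and 1 probe set value cannot tell transcripts of these starts apart. Emilin2 also has 2 windows, of which the one with matches is printed.
Ltbp1, first start, chr17:75005279-75005578, plus strand: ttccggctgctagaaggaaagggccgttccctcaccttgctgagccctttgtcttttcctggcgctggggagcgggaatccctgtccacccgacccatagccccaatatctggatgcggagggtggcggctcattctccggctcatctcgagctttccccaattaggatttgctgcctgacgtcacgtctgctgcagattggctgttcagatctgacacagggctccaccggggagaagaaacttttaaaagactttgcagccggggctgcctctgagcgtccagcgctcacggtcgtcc
Ltbp1, second start, chr17:75178531-75178830, plus strand: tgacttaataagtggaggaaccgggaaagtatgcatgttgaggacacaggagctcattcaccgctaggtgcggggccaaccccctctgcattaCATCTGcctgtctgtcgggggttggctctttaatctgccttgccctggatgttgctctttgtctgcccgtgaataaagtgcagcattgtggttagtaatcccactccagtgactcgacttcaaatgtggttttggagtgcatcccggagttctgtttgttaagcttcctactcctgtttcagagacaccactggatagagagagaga
Emilin2, the start with GC boxes, chr17:71310962-71311261, minus strand: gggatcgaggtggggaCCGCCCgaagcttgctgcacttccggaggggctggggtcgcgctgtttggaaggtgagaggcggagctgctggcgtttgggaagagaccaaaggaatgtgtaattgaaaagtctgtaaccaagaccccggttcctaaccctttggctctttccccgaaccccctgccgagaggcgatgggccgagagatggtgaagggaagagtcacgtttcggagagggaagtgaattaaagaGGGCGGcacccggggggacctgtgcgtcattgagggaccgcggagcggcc
Bgn, chrX:73483351-73483650, plus strand: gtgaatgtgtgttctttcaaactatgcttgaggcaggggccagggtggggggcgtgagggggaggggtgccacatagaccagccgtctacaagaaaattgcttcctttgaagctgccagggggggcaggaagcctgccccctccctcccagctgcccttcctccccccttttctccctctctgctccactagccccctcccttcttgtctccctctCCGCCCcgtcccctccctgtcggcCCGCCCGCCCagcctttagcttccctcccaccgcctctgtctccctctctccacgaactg

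The printed windows held no match to GACCACCCA, the site of the Hedgehog effectors, or to TATAAA. The first Ltbp1 window held no match to any of the 4 motifs, and the second held 1 match to CATCTG. The Emilin2 window had 2 GC boxes and the Bgn window 3, of which a pair overlaps. RefSeq windows were at hand for 36 of the 51 measured matrix genes, 46 windows in all. In these, the GC box was found in 28 windows (60.9%), beside 35.7% of all 32851 windows and 52.0% of the 14927 windows of measured genes. CATCTG was found in 6 (13.0%), beside 17.2% of all windows and 13.5% of those of measured genes. TATAAA was found in 8 (17.4%), beside 13.6% and 10.9%, and GACCACCCA in 0, beside 0.253% and 0.147%. These matches describe letters and not bound sites.

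Fibronectin and tenascins gave little difference. Fn1, the fibronectin gene, read 9.22 in anterior and 9.10 in posterior tissue, a difference of -0.12 beside a local spread of 0.09. The median of its neighbours in level was -0.06, and Fn1 lay 0.62 local spreads from it. The tenascins Tnc, Tnr and Tnxb were not detected. Tnc, known from sites of tissue movement and later tendon, differed by 0.23 at background level.

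Genes of microfibrils and elastic fibres were measured for 12 of 14 listed members, 10 of them detected. Beside Ltbp1 and Emilin2, none passed 1.3-fold. The 4 measured fibulin genes of the list, of which Efemp1 was not detected, had their higher value in anterior tissue. Of all 14860 genes 8477 did, and of the 9017 detected genes 6023. The undetected Fbln7, which is not on the list, also had its higher value there, at -0.15. Fbln1, which binds fibronectin and basement membrane proteins, read 7.85 in anterior and 7.62 in posterior tissue (difference -0.23, local spread 0.12). Fbln2 had levels of 6.49 and 6.19 (difference -0.30, local spread 0.16). Fbln5, needed to assemble elastic fibres, had 5.24 in anterior tissue and 4.92, under the floor, in posterior tissue, so that the anterior side was higher by at least 1.13-fold. Efemp1, also called fibulin 3, was not detected, with a difference of -0.35. After the trend with level was removed, the detected fibulins lay at -0.15, -0.22 and -0.33, all on the anterior side and under the threshold. Fbn2, the fibrillin known from embryonic microfibrils, had levels of 8.17 and 8.23 and differed by 0.05. Eln, the elastin gene, differed by 0.03.

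**Figure D3:**
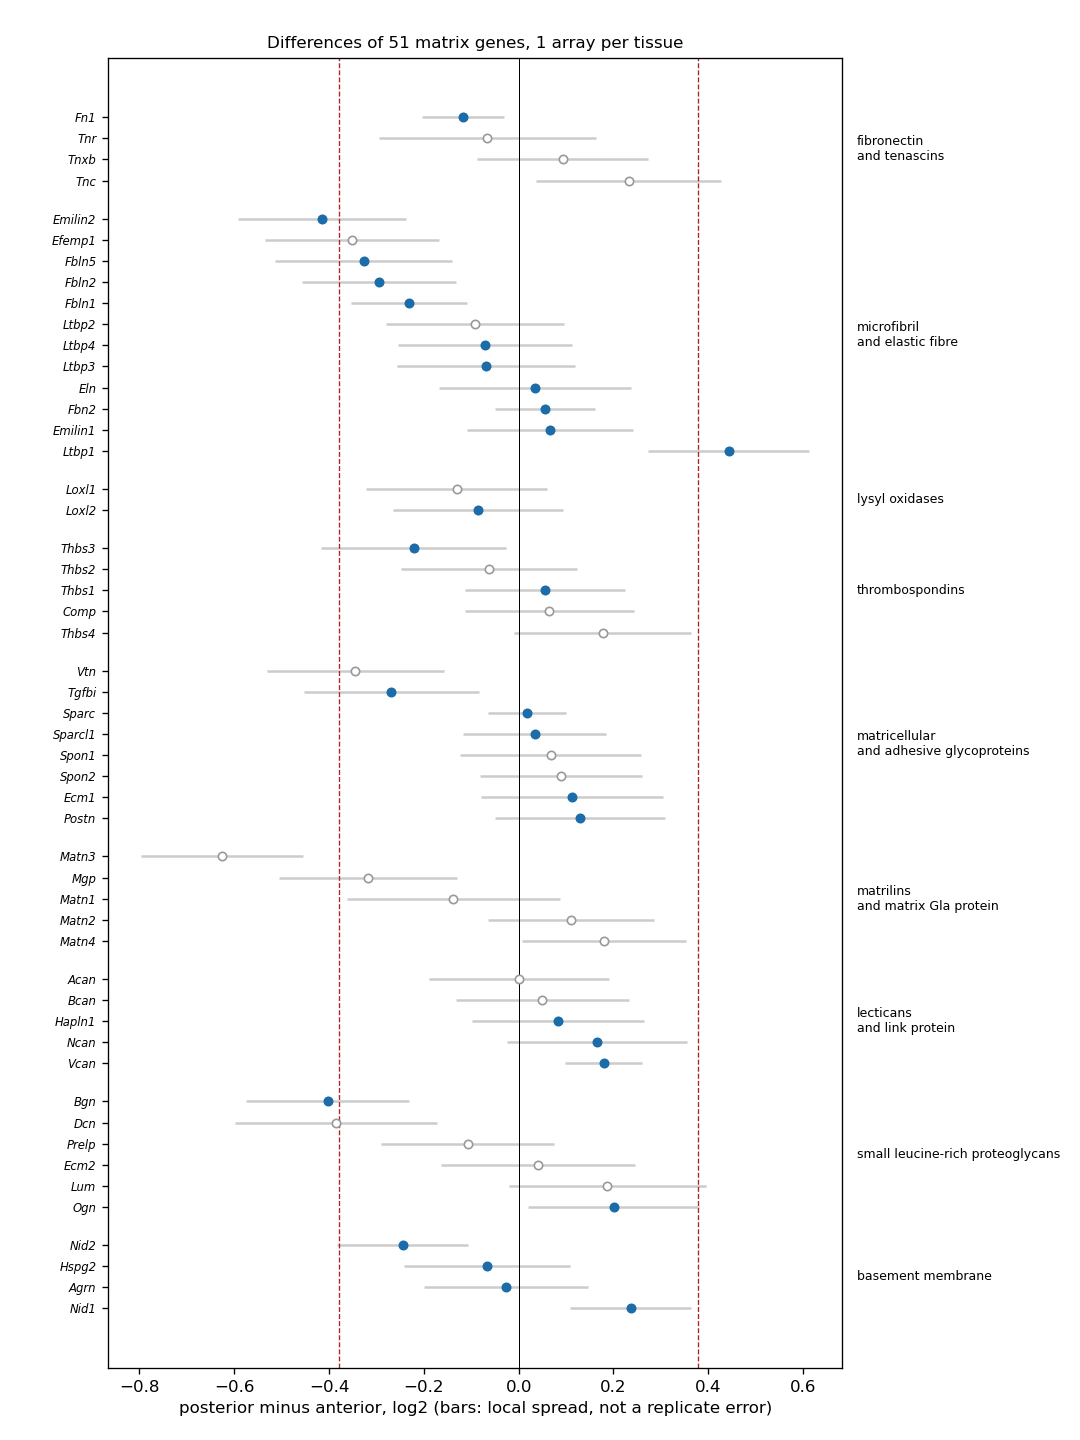
Posterior minus anterior difference on the log2 scale (x axis) of the 51 measured matrix genes (rows, grouped by role). Filled points are detected genes, open points are not detected, bars show the local spread, and dashed lines mark 1.3-fold. Ltbp1 lies at 0.44, Fbln1, Fbln2, Fbln5 and Efemp1 lie between -0.35 and -0.23, and all lecticans lie at or right of 0.

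The lysyl oxidases, which cross-link collagen and elastin, were represented by 2 genes. Loxl2 had levels of 5.92 and 5.84 and differed by -0.08, within its local spread of 0.18. Loxl1 was not detected and differed by -0.13.

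Of the 5 thrombospondins, calcium-binding glycoproteins that modulate adhesion, Thbs1 and Thbs3 were detected. Thbs1, known as an activator of latent TGF-beta, had levels of 6.34 and 6.39, a difference of 0.06. Thbs3 had 5.16 in anterior tissue and 4.94, under the floor, in posterior tissue, which gives at least 1.07-fold. Thbs2, Thbs4 and Comp, the last a cartilage protein, were not detected, and their differences ran from -0.06 to 0.18.

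The matricellular and adhesive glycoproteins held the matrix gene with the smallest difference among those detected. Sparc, which binds collagen and calcium, read 9.57 in anterior and 9.59 in posterior tissue, a difference of 0.02 beside a local spread of 0.08. Sparcl1 differed by 0.03. Tgfbi, an integrin-binding protein induced by TGF-beta, had levels of 6.62 and 6.35, a difference of -0.27 beside a local spread of 0.18, whereas its paralogue Postn, or periostin, had 5.08 and 5.21, a difference of 0.13. Ecm1 differed by 0.11. Spon1, Spon2 and Vtn, the vitronectin gene, were not detected, and Vtn had the largest of their differences, -0.34.

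The matrilins and Mgp, the matrix Gla protein that inhibits calcification, were all under the floor on both arrays. Matn3, a matrilin of growth cartilage, had the largest difference of all 51 genes by measured value, with 4.77 in anterior and 4.14 in posterior tissue (difference -0.63, local spread 0.17). Both values lie in the range of the receptor genes that set the floor, so no fold is read from them. Matn1 and Mgp differed by -0.14 and -0.32, and Matn2 and Matn4 by 0.11 and 0.18.

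None of the lecticans or their link protein passed the threshold, and Vcan alone among them exceeded its local spread. Vcan, the versican gene, read 9.51 in anterior and 9.69 in posterior tissue. It was 1.13-fold higher in posterior tissue (difference 0.18), and since genes of this level spread little, with a local spread of 0.08, it lay 2.93 local spreads from the median of its neighbours in level. Hapln1, the link protein that fastens lecticans to hyaluronan, had levels of 5.85 and 5.93, a difference of 0.08 within its local spread of 0.18. Ncan, a lectican known from nervous tissue, had 4.99, under the floor, and 5.15, a bound of 1.07-fold toward posterior tissue. Bcan was not detected and differed by 0.05. Acan, the aggrecan gene of cartilage, was not detected and had 4.19 on both arrays.

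Among the small leucine-rich proteoglycans Bgn and Ogn were detected. Ogn, or osteoglycin, had 4.86, under the floor, and 5.06, barely above it, so that its bound shows no difference. Dcn, the decorin gene and a relative of Bgn, had 4.18 and 3.79. Its difference of -0.39 was in the same direction as that of Bgn but wholly under the floor. Lum, Prelp and Ecm2 were not detected and differed by 0.19, -0.11 and 0.04.

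The basement membrane genes were all detected on both arrays, and the 2 nidogens, which link laminin to collagen IV networks, went opposite ways. Nid1 read 7.06 in anterior and 7.29 in posterior tissue, 1.18-fold higher in posterior tissue (difference 0.24, local spread 0.13). Nid2 had 7.62 and 7.38, 1.18-fold higher in anterior tissue (difference -0.24, local spread 0.14). After the trend correction these became 0.33 and -0.16. Hspg2, the perlecan gene, and Agrn, the agrin gene, differed by -0.07 and -0.03, both within a local spread of 0.17.

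Measured against the spread of genes of like level, 3 of the 28 detected matrix genes lay more than 2 local spreads toward posterior tissue, namely Ltbp1 (3.08), Vcan (2.93) and Nid1 (2.63), beside 4.11% of detected genes. Emilin2 lay just past 2 local spreads toward anterior tissue and was the only 1 of the 28 on that side, beside 5.07% of detected genes. Bgn lay 1.88 local spreads away. This way of counting was added after the values were seen. With 28 genes, 3 is a share of 10.7%, and whether it differs from the background was not tested.

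**Figure D4:**
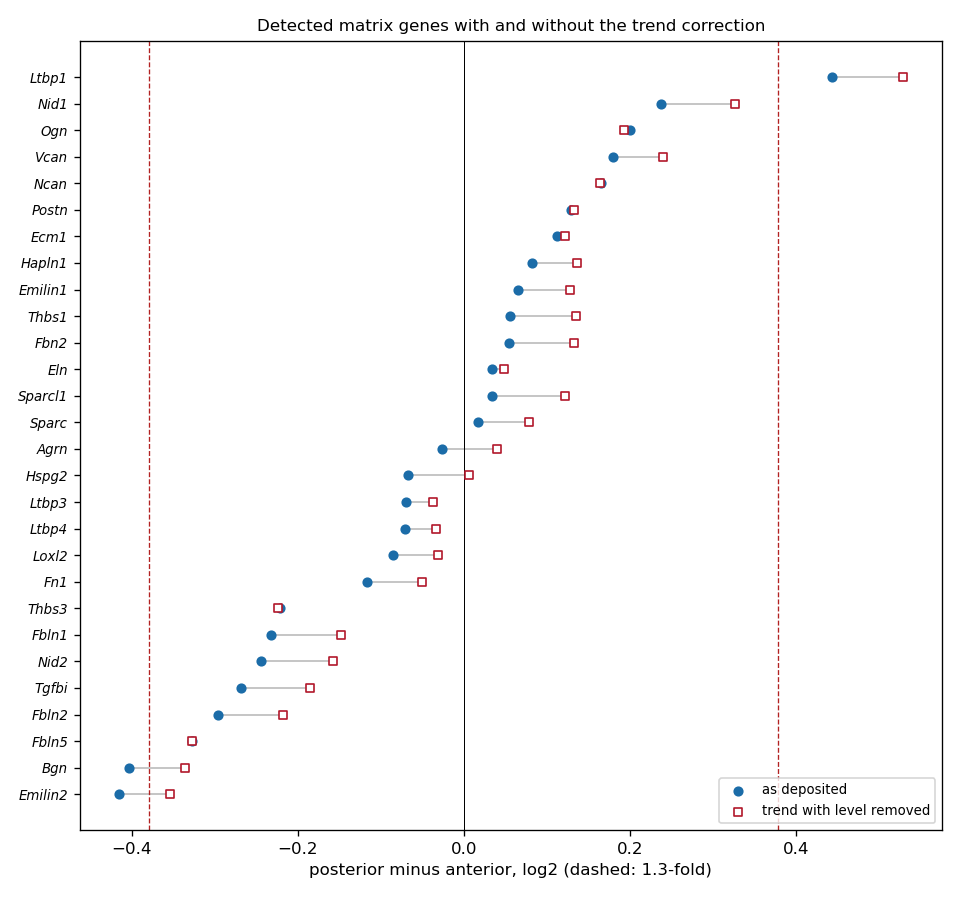
Posterior minus anterior difference on the log2 scale (x axis) of the 28 detected matrix genes (rows) as deposited (filled circles) and after the trend with level was removed (open squares), with dashed lines at 1.3-fold. Ltbp1 is past the line both ways, while Emilin2 and Bgn move inside it.

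Several of these genes lie next to each other in the genome, by the order of protein-coding genes in RefSeq. Each of the 4 lecticans neighbours a link protein gene. Vcan and Hapln1 were both detected and differed by 0.18 and 0.08. Ncan lies beside Hapln4 (0.17 and 0.20 by measured values, Ncan under the floor in anterior tissue and Hapln4 not detected), Bcan beside Hapln2 (0.05 and -0.12, Bcan not detected) and Acan beside Hapln3 (0.00 and -0.34, neither detected). The small leucine-rich proteoglycan genes Ecm2, Aspn, Omd and Ogn lie in a row on chromosome 13. By measured values all 4 were higher in posterior tissue, by 0.04, 0.08, 0.18 and 0.20. Ecm2 was not detected, and Ecm2, Aspn and Omd lay within their local spreads. Ogn exceeded its own of 0.18, but its anterior value was under the floor and its bound shows no difference. In the row Dcn, Lum, Kera and Epyc on chromosome 10 none was detected.

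A list of 56 further matrix genes was set beside them, of which 50 were measured and 23 detected. Of the 50 measured, 3 were past 1.3-fold toward anterior tissue, against 4.80% of all genes. Toward posterior tissue 0 were, against 3.77% of all genes. In either direction 8.57% of all genes passed. Whether these shares differ was not tested. The median size of a difference in the list was 0.128. Ccn1, a matricellular protein of the CCN family, was 1.36-fold higher in anterior tissue (5.85 and 5.41, local spread 0.18). Mfge8, an adhesive glycoprotein, was 1.34-fold higher (6.91 and 6.49), and Mfap4, a microfibril-associated protein, 1.31-fold (8.74 and 8.35). Mfge8 and Mfap4 lay at -0.33 and -0.31 after the trend correction, under the threshold, and Ccn1 at -0.40 stayed past it. Tnfaip6, which modifies hyaluronan, and Ccn4 differed by -0.37 and -0.29. On the posterior side Smoc1, a SPARC-related protein of basement membranes, had 6.61 and 6.94 (difference 0.34), and Has2, the main hyaluronan synthase of the limb bud, had 7.13 and 7.42 (difference 0.29). Both passed 1.3-fold after the trend correction, at 0.43 and, just past the threshold, 0.38. Omd and Spock2 differed by 0.18 and 0.12, and Has3, under the floor in anterior tissue, was at least 1.05-fold higher on the posterior side.

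Known genes of either side lay where the labels put them. On the posterior side Ptch1 was higher by 2.26-fold, Gli1 by 1.65-fold, Hand2 by 1.56-fold and Shh by at least 1.64-fold. On the anterior side Gli3 was higher by 1.47-fold and Alx4 by 1.56-fold. All 10 limb mesenchyme markers were detected. Their median size of difference was 0.407 on the log2 scale. With sign the median was -0.35, and 8 of the 10 had their higher value in anterior tissue. Past 1.3-fold toward anterior tissue were 5, against 4.80% of all genes, with Lhx9 at 2.47-fold and Msx1 at 1.79-fold the furthest. Toward posterior tissue there were 0, against 3.77% of all genes, with Tbx4 just under the threshold at 1.297-fold. After the trend correction Tbx4 passed it at 0.47, 1 marker toward posterior tissue against 2.48% of detected genes. Toward anterior tissue 4 markers then passed, against 3.12% of detected genes. The sum of the linear values of all 10 markers was 4228 in anterior and 3211 in posterior tissue. The part of this shift in the matrix differences was not tested.

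Other cells in the pools were followed by marker lists, whose part in the matrix differences was not tested. The sum of linear values of each list in anterior and posterior tissue was 1032 and 1000.3 over 10 endothelial markers, 303 and 255 over 10 macrophage markers, 408 and 347 over 7 neural markers, 954 and 985 over 9 ectoderm and ridge markers, 604 and 566 over 8 precartilage markers and 521 and 566 over 8 trunk and body wall markers. A sum on the linear scale gives the brightest genes of a list the most weight. Detected were 9, 3, 5, 8, 6 and 8 markers of these lists in turn. Of the 10 macrophage markers 4 had their higher value in posterior tissue, none of them detected. The 3 detected ones had theirs in anterior tissue, with a median of -0.14, and Tyrobp alone of these passed 1.3-fold. In the neural list, whose sum was lower in posterior tissue, 5 of 7 markers had their higher value there (median 0.10). Of the 5 detected neural markers 3 did (median 0.06). In the trunk list, whose sum was higher in posterior tissue, 5 of 8 had their higher value in anterior tissue (median -0.14). The medians of the other lists were -0.09 (endothelial), -0.07 (macrophage), 0.03 (ectoderm and ridge) and -0.10 (precartilage). Past 1.3-fold toward anterior tissue were 1, 2, 1, 1, 2 and 2 genes of the lists in the order of the sums. Toward posterior tissue they were 0, 0, 1, 1, 0 and 1. Of all genes 4.80% and 3.77% passed in these directions. C1qa of the macrophage list and Cnmd of the precartilage list, both toward anterior tissue, were not detected. Of the detected ones Tyrobp, a macrophage adaptor, was 1.82-fold, Dcx, a neuronal gene, 1.79-fold, Sox5, a cartilage regulator, 1.51-fold, Pax1 1.32-fold, the ridge gene Dlx5 1.31-fold, Foxc2 at least 1.39-fold and Plvap at least 1.03-fold higher on the anterior side. Nefm, a neurofilament gene, was 1.47-fold, Meox2 1.41-fold and Krt5, a keratin, 1.40-fold higher in posterior tissue. The cartilage regulator Sox9 differed by -0.02 and Col2a1, the main cartilage collagen, by 0.07. Of 7 muscle progenitor markers Myod1 was higher on the posterior side by at least 1.03-fold, and of 4 red blood cell markers none passed 1.3-fold; these lists summed to 313 and 329 and to 6609 and 6651.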

How the data were processed

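Per the labels, the authors' deposited table holds log2 values that Affymetrix Expression Console made by RMA at the core gene level, 1 per probe set. The submitters' processing notes name mm9 as the build. RMA equalises the arrays and can compress ratios at low level. Of 23332 probe sets, 14996 had exactly 1 symbol in the platform annotation, 1019 several and 7317 none; the gene table (GRCm38) changed 0 symbols. Values were averaged per symbol. Differences, local spread, detection floor and trend (lowess, fraction 0.3) were computed over all 14860 genes. Python 3.11.15, pandas 2.3.3 and statsmodels 0.14.6 were used. The differences, local spread and trend were first tested on simulated data with 1 noise level and changes larger than 1.3-fold. The detection floor was not tested in this way. With 1 array per group no test was made, and precision is limited by that number. A fold of a detected gene whose lower value lay under the floor is given as a bound against the floor. The members and lists were chosen with earlier results of these data known. Every member could be named; of the further matrix genes up to 5 detected ones per direction, and of each marker list up to 2 past 1.3-fold per direction; Sox9, Col2a1 and further list genes named beside neighbours were chosen after their values were seen. Alternatives were the brightest probe set, median-centred arrays, the trend correction, an offset of 32, detected members only, 1.5-fold and floors at percentiles 90 and 99.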

Additional observations from a re-analysis of the deposited data

How the results depend on the processing

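The count of 1 gene toward posterior tissue (Ltbp1) was the same with median-centred arrays, the trend with level removed and detected genes only. It was 0 with an offset of 32 on the linear scale and at 1.5-fold, and 3 when genes past 2 local spreads were counted. The count of 4 toward anterior tissue was 4 by local spreads, with Efemp1 in place of Bgn, and was 3 with median-centred arrays. It was 2 with the trend removed (Matn3 and Dcn, neither detected), 2 among detected genes (Emilin2 and Bgn), 0 with the offset, and 1 at 1.5-fold (Matn3). An offset shrinks all differences of dim genes by its construction. Taking the brightest probe set could change nothing, since each measured matrix gene has 1. The floor decided how many of the 51 genes were detected: 28 at percentile 95, 40 at percentile 90 and 17 at percentile 99. No gene past 1.3-fold changed sign under the settings run on single genes, and the trend correction turned the sign of 2 detected genes, Hspg2 and Agrn, both near 0. The median stayed between -0.004 and 0.022 on the log2 scale. No paired analysis was possible because each tissue has 1 array.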

Other observations

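Acan was 1 of 493 genes (3.32% of 14860) with the same value to the last deposited digit on both arrays; the reason was not tested.

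Matrix genes that bind, make or break down hyaluronan lay on both sides. Of those above the floor on both arrays, Has2 (0.29), Vcan (0.18), Hapln1 (0.08), Hyal1 (0.04) and Has1 (0.02) had their higher value in posterior tissue, and Tnfaip6 (-0.37), Hapln2 (-0.12) and Hyal2 (-0.10) in anterior tissue. Ncan and Has3 were under the floor in anterior tissue, with bounds of 1.07-fold and 1.05-fold toward posterior tissue. Bcan, Acan, Hapln3, Hapln4 and the receptor gene Cd44 were not detected. This grouping was made after the values were seen, and none of these genes passed 1.3-fold as deposited.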
